A study of Homo sapiens with 6 samples.

Results

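The SR proteins are splicing factors that carry RNA recognition motifs and a tail rich in arginine and serine. Their transcripts were followed in HaCaT cells, an immortalised human keratinocyte line, after UVC damage, without and with a light-driven repair enzyme made active. The 10 genes described, SRSF1 to SRSF7, SRSF9, SRSF10 and SRSF11, are family members listed by name, with earlier results of these data known. They were matched by Ensembl ID to the 19493 genes with values, and all 10 were among the 11926 genes tested. Every culture expressed the CPD photolyase of Potorous tridactylus, a marsupial enzyme that splits cyclobutane pyrimidine dimers (CPDs, the commonest DNA lesion of UVC) when white light activates it. Of 6 libraries, 2 came from untreated cells with inactive photolyase (control), 2 from cells given 15 J/m2 of UVC at 254 nm and harvested 6 h later with inactive photolyase (UVC), and 2 from cells given the same UVC plus 2 h of white light, which made the photolyase active (active photolyase). Only the last group received white light, so that light and CPD removal cannot be told apart, and these values hold no measure of CPDs. The labels name no clones, nor do they state that replicates were grown as separate cultures, and p-values therefore measure the spread between these libraries only, which may be technical.

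SR proteins bind exonic splicing enhancers in nascent RNA and help the spliceosome to choose splice sites, and several also act in mRNA export, 3′ end choice or release of paused RNA polymerase II. Kinases of the SRPK and CLK families phosphorylate the arginine-serine tail and so set where in the cell the proteins are and how they act. Many SR genes control their own output by splicing in an exon with a premature stop, which sends the transcript to nonsense-mediated decay. The series title names alternative splicing as the study's subject; the values here are per gene and hold no isoforms.

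Each library held 57669389 to 70005705 counted reads, and a member had 2452 to 22154 reads in a library. Levels below are the deposited cRPKM (reads per effective gene length and library depth) divided by the library's TMM factor, called scaled cRPKM. TMM takes most genes as unchanged, so that a change is relative to the typical gene and not to all RNA. After UVC 43.1% of tested genes were called lower and 42.5% higher (test below), so that assumption was not met here. Library totals, the other scaling used below, divide by a library's summed counts alone. They put the median gene at 0.42 on the log2 scale after UVC, where TMM put it at 0.00. In these bulk samples, fewer expressing cells and less RNA per cell cannot be told apart. All 8 keratinocyte markers were tested, and their summed level was 23109 to 23636 scaled cRPKM in control, 13663 to 13952 in the UVC libraries and 21887 to 21972 once photolyase was active. The summed markers of melanocytes (1 of 6 tested, MITF), fibroblasts (2 of 7) and endothelium (1 of 3) stayed under 10 scaled cRPKM in each library, and 1 melanocyte and 1 immune marker had 0 reads. For immune cells 4 of 7 markers were tested (CD3E, CD14, CD68 and CD74), and the sum was 133 to 146 in control, 181 to 182 in the UVC libraries and 188 to 198 where photolyase was active. Reads of the mitochondrial genome were 3.32 and 3.92% of the control totals, 5.13 and 5.28% of those under UVC, and 4.09 and 3.21% where photolyase was active. The part of these shifts in the results below was not tested.

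In unirradiated cells SRSF3 was the most abundant SR transcript per length (171 and 167 scaled cRPKM) and SRSF10 the least (17.8 and 19.5). The order in control was SRSF3, SRSF7, SRSF2, SRSF6, SRSF5, SRSF9, SRSF1, SRSF4, SRSF11 and SRSF10, with no overlap between neighbours. Among the 11926 tested genes SRSF3 ranked 487 and 476 by cRPKM in the control libraries, and SRSF10 ranked 4046 and 3827. After UVC the order was SRSF9, SRSF3, SRSF2, then SRSF5, SRSF6 and SRSF7 close together, with SRSF6 overlapping both others, and then SRSF11, SRSF1, SRSF4 and SRSF10. With active photolyase SRSF3 led again, SRSF2 and SRSF7 overlapped behind it, and SRSF9, SRSF6, SRSF5, SRSF1, SRSF11, SRSF4 and SRSF10 followed without overlap.

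**Figure D1:**
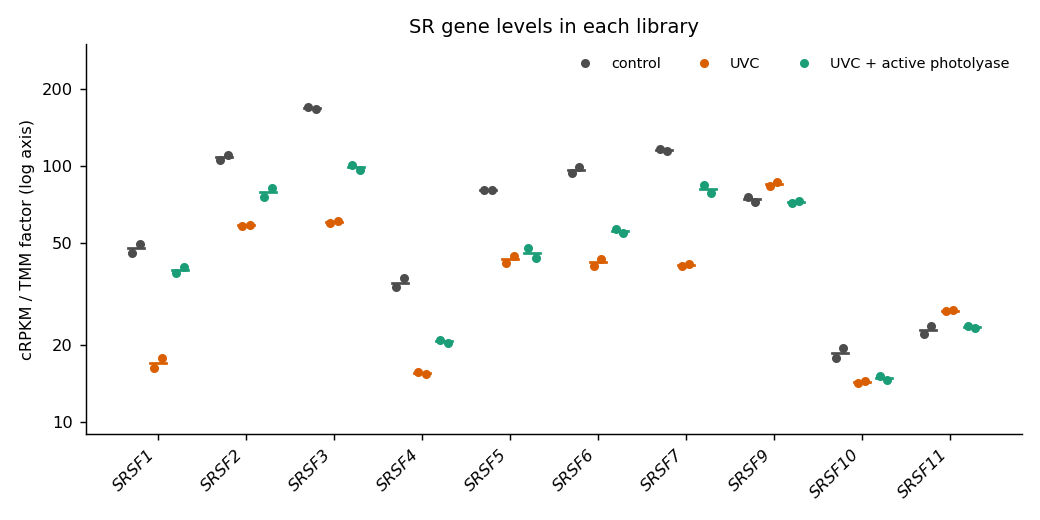
Scaled cRPKM (log axis) of the 10 SR genes in every library. Points are single libraries, 2 in each group, and short bars are group means; SRSF9 and SRSF11 sit highest under UVC, and the other 8 genes sit highest in control (with library totals SRSF10 does not).

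The promoters of the members that moved most, and of the SRSF1 relative that moved the other way, are shown to let their layout be compared. RefSeq (GRCh38.p14) gave a promoter window for 9 of the 10 members, from 250 bases before to 50 after a start site; SRSF2 was not among them. The 4 printed below run 5′ to 3′, and for SRSF7, which has more windows, the window whose start lay near most GENCODE 29 transcript starts (5 within 100 bases) was taken. Capitals mark matches on either strand to the TATA box written as TATAAA, the CCAAT box, the ETS motif written as CCGGAAG, the cyclic AMP half-site written as TGACGT, the NRF1 motif written as GCATGCGC and the YY1 motif written as AANATGGCG; no motif holds another.
SRSF1 (chr17:58007197-58007496, minus strand): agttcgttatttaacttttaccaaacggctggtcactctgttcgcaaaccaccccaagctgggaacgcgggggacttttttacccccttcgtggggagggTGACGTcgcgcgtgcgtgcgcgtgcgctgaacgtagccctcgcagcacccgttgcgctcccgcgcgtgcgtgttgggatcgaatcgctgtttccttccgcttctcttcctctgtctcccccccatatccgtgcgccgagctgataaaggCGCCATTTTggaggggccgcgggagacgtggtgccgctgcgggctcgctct
SRSF9 (chr12:120469699-120469998, minus strand): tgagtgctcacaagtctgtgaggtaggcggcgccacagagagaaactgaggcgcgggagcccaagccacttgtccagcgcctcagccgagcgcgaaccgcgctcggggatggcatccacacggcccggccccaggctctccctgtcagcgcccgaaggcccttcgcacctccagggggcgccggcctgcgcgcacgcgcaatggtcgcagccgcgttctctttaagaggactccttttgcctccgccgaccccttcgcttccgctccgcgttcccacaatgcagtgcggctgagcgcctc
SRSF3 (chr6:36594112-36594411, plus strand): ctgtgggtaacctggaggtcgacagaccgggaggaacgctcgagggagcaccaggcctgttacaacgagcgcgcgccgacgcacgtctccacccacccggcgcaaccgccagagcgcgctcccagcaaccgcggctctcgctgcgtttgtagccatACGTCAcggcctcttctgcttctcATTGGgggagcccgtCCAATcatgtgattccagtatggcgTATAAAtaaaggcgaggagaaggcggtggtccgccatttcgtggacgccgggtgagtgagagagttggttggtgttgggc
SRSF7 (chr2:38751312-38751611, minus strand): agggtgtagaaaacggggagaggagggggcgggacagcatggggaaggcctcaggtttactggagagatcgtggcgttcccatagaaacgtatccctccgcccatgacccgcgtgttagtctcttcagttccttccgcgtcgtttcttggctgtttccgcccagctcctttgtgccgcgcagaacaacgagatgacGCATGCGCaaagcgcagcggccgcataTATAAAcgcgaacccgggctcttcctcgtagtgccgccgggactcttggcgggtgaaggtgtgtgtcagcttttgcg

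A TATA box match began 30 bases before the start of SRSF3 and 27 before that of SRSF7, both on the coding strand, and SRSF11 had a match on the other strand 206 bases before its start. That made 3 of 9 members with TATAAA in a window, against 14.0% of 27305 gene symbols with a window. The half-site TGACGT was found in SRSF1, SRSF3 and SRSF5 (9.64% of all symbols), ETS letters in SRSF4 and SRSF5 (12.2%), NRF1 letters in SRSF7 and SRSF10 (3.68%), the YY1 letters in SRSF1 (3.85%) and CCAAT in SRSF3 (39.7%). Windows of SRSF9 and SRSF6 held none of these letters, and no binding was measured. The motifs were chosen after the windows were seen, so the counts set beside these shares are no test. A link between these letters and the changes below was not tested.

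UVC against control asked what damage did to these transcripts. After UVC 8 of the 10 SR genes fell (7 with library totals, where SRSF10 was not called) and 2 rose, SRSF9 and SRSF11. SRSF7 fell by 64.5%, SRSF1 fell by 64.3% and SRSF3 fell by 64.0%, while the rises of SRSF9 and SRSF11 were 15.2 and 19.5%. These sizes depended on the scaling. With library totals the log2 changes of SRSF7, SRSF1 and SRSF3 were smaller (-1.08, -1.07 and -1.06). Those of SRSF9 and SRSF11 were larger, 0.62 and 0.67 in place of 0.20 and 0.26. The summed level of the family dropped from 765 and 774 scaled cRPKM in control to 399 and 412 after UVC. As deposited, without TMM factors, the drop was smaller, from 678 and 685 cRPKM to 472 and 487. Over all 11926 genes edgeR's quasi-likelihood test called 43.1% lower and 42.5% higher at an adjusted p (Benjamini and Hochberg over all tested genes) under 0.05, so that a call by itself sets no gene apart. The median log2 change of the members was -1.04, against 0.00 for all tested genes.

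Active photolyase against control asked what was left once CPDs could be split. The same number, 8 of 10, were lower than control, and SRSF9 and SRSF11 were not called; over all genes 32.9% were called lower and 33.0% higher. The members' median was -0.48, against 0.01 for all genes, and the family sum was 535 and 528 scaled cRPKM, between the UVC and the control libraries. As deposited the sum was 511 and 505 cRPKM, still between them but close to UVC. Against UVC, active photolyase had 6 members higher (39.2% of all genes were called higher), or 3 members with library totals. SRSF9 and SRSF11 were lower (39.9% of all genes were called lower), or 4 members with library totals. SRSF5 and SRSF10 were not called. The members' median was 0.41 against -0.04 for all genes, and with library totals 0.10 against -0.34. In 7 members (SRSF1, SRSF2, SRSF3, SRSF4, SRSF6, SRSF7 and SRSF10) both libraries with active photolyase lay between the UVC and the control libraries in scaled cRPKM. The share of all tested genes in that order was not counted, so that 7 of 10 sets the members apart from no other genes. For SRSF10 the order rested on scaling. As deposited it was lowest with active photolyase, at 14.47 and 13.97 cRPKM against 16.72 and 17.18 under UVC. These comparisons share libraries, so that their values are set side by side and not as separate evidence.

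**Figure D2:**
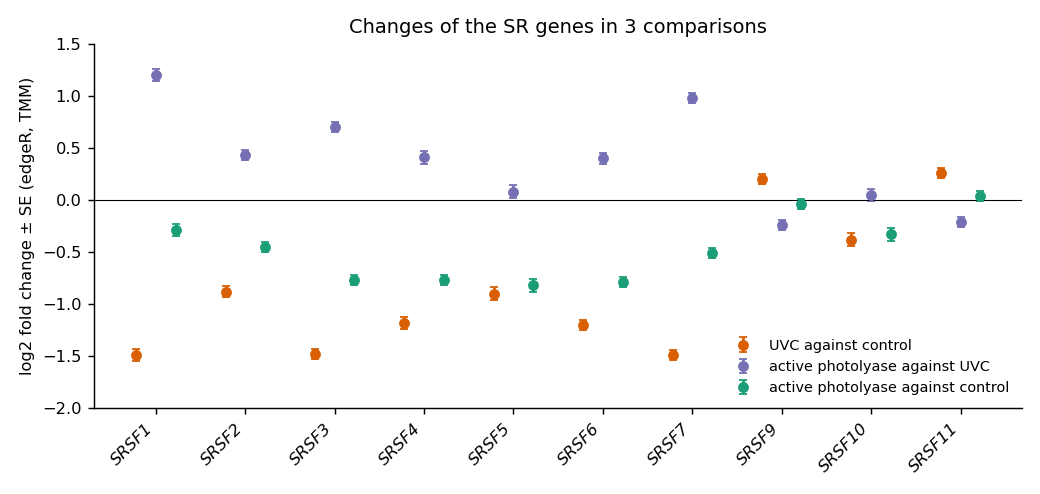
Log2 fold change with its SE (edgeR, TMM) of each SR gene in the 3 comparisons. With active photolyase SRSF1 lay nearest control among the 7 genes that fell by over 0.5 after UVC (-0.29), and SRSF5 stood at -0.82 against control, close to its value after UVC alone (-0.90).

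SRSF1 and SRSF9 are close relatives that carry a true and a variant RNA recognition motif in tandem. SRSF1, a shuttling factor best known as a splicing oncoprotein, was at 45.8 and 49.9 scaled cRPKM in control, 16.3 and 17.8 under UVC, and 38.2 and 40.3 with active photolyase. All 3 groups stood apart, and the libraries with active photolyase were much nearer to control than to UVC. The log2 change was -1.49 ± 0.06 (SE) after UVC (adjusted p = 3.58e-11), 1.20 ± 0.06 for active photolyase against UVC, and -0.29 ± 0.06 (adjusted p = 0.00093) for active photolyase against control. Among the 8 members that fell after UVC only SRSF10, which had fallen less (-0.38), was as near to control with active photolyase (-0.33 ± 0.06). SRSF9 was at 76.1 and 72.5 in control, 83.9 and 87.0 under UVC, and 71.6 and 73.2 with active photolyase. Its UVC libraries were the highest, and the other groups overlapped. It rose by 0.20 ± 0.05 after UVC (adjusted p = 0.00165) and was 0.24 lower with active photolyase than after UVC (-0.24 ± 0.05); against control it was at -0.04 ± 0.05 (adjusted p = 0.542).

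A ratio within a library is free of any scaling between libraries. The level of SRSF1 per that of SRSF9 was 0.602 and 0.689 in control, 0.195 and 0.204 under UVC, and 0.533 and 0.551 with active photolyase. Both UVC libraries thus lay far below both control libraries. With 2 libraries in a group an exact permutation test cannot go below p = 0.333, so that ratios and shares are given without a test. SRSF1 shares 1890 exonic bases with AC015813.2 on its own strand, and SRSF1, SRSF9 and SRSF10 have 1 named pseudogene each, whose reads may not have been told apart. SRSF9 shares 1729 exonic bases with GATC on the opposite strand in GENCODE 29, and the counting rule's use of strand is not given in the sources used here, so its value is uncertain to that degree; GATC was not analysed here.

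SRSF4, SRSF5 and SRSF6 form the other group with tandem motifs. SRSF6, whose excess causes skin overgrowth in mice, was at 94.1 and 99.1 scaled cRPKM in control, 40.9 and 43.4 under UVC, and 56.7 and 54.9 with active photolyase. SRSF4, the member with the longest arginine-serine tail, was at 33.8 and 36.5, then 15.7 and 15.4, then 21.0 and 20.4. Both genes stood at 3 separate levels, with the libraries of active photolyase nearer to UVC than to control. Their log2 changes were much alike: -1.20 ± 0.05 for SRSF6 and -1.18 ± 0.06 for SRSF4 under UVC, and -0.79 ± 0.05 and -0.77 ± 0.05 with active photolyase against control. The cRPKM ratio of SRSF4 to SRSF6 stayed between 0.355 and 0.384 in all 6 libraries. Their rise with active photolyase against UVC, 0.41 ± 0.06 for SRSF4 and 0.40 ± 0.05 for SRSF6, rested on scaling: with library totals it was 0.11 (adjusted p = 0.0919) and 0.10 (adjusted p = 0.105).

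SRSF5, first known as a gene induced in growing liver, behaved differently from that pair. It was at 81.0 and 80.5 scaled cRPKM in control, 41.9 and 44.6 under UVC, and 47.9 and 43.8 with active photolyase. Control stood apart, and the other 2 groups overlapped. After UVC it fell by 0.90 on the log2 scale (SE 0.06, adjusted p = 2.82e-09), active photolyase against UVC gave 0.08 ± 0.06 (adjusted p = 0.189; with library totals -0.22, adjusted p = 0.00179), and active photolyase against control gave -0.82 ± 0.06, within 1 SE of SRSF6. The ratio of SRSF1 to SRSF5 was 0.566 and 0.621 in control, 0.390 and 0.398 under UVC, and 0.798 and 0.920 with active photolyase, where it passed control in both libraries.

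SRSF2, SRSF3 and SRSF7 carry a single RNA recognition motif. SRSF3, the smallest family member and a factor in export and 3′ end choice, was at 171 and 167 scaled cRPKM in control, 60.0 and 61.2 under UVC, and 101 and 96.7 with active photolyase. SRSF7, which has a zinc knuckle beside its motif, was at 117 and 115, then 40.9 and 41.6, then 84.3 and 78.4. In both genes the groups were wide apart, and after UVC the libraries of a group were within 2 scaled cRPKM of each other. The falls after UVC were near equal, -1.48 ± 0.05 for SRSF3 (adjusted p = 5.08e-12) and -1.49 ± 0.05 for SRSF7 (adjusted p = 7.7e-12).

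With active photolyase the pair parted. SRSF7 was 0.98 ± 0.05 above UVC and -0.51 ± 0.05 against control, whereas SRSF3 was 0.70 ± 0.05 above UVC and -0.77 ± 0.05 against control. The cRPKM ratio of SRSF3 to SRSF7 was 1.45 in either control library, 1.47 in either UVC library, and 1.19 and 1.23 once photolyase was active. So the pair kept its ratio through the fall and lost it in the libraries with active photolyase.

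SRSF2, which stays in the nucleus and also helps to release paused RNA polymerase II, was at 106 and 111 scaled cRPKM in control, 58.5 and 59.2 under UVC, and 76.1 and 82.2 with active photolyase. The groups did not overlap. Its fall after UVC, -0.88 ± 0.05 (adjusted p = 2.69e-09), was smaller than those of SRSF3 and SRSF7, and it was -0.45 ± 0.05 against control with active photolyase. The rise over UVC, 0.43 ± 0.05, was 0.12 with library totals (adjusted p = 0.0539). In GENCODE 29 SRSF2 shares 1106 exonic bases with MFSD11 on the opposite strand, whose level was 7.47 scaled cRPKM in control, 8.61 in UVC and 7.72 with photolyase active.

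SRSF10 and SRSF11 are SR-like proteins: SRSF10 turns into a splicing repressor when dephosphorylated in heat shock, and SRSF11 is a more distant relative. SRSF10 was at 17.8 and 19.5 scaled cRPKM in control, 14.2 and 14.5 under UVC, and 15.2 and 14.6 with active photolyase. It was lowest after UVC, but only just below active photolyase. The log2 change was -0.38 ± 0.06 after UVC (adjusted p = 3.54e-05), 0.05 ± 0.06 for active photolyase against UVC (adjusted p = 0.421), and -0.33 ± 0.06 against control. The fall after UVC rested on the scaling: with library totals the change was 0.04 (adjusted p = 0.546), and against UVC it was then lower with active photolyase (-0.25, adjusted p = 0.00103).

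SRSF11 was at 22.1 and 23.7 scaled cRPKM in control, 27.1 and 27.5 under UVC, and 23.8 and 23.3 with active photolyase. As with SRSF9, the UVC libraries were the highest and the other groups overlapped. It was 0.26 ± 0.05 higher after UVC (adjusted p = 0.000327), -0.21 ± 0.05 with active photolyase against UVC, and 0.04 ± 0.05 against control (adjusted p = 0.462; 0.15 with library totals, adjusted p = 0.0161). The ratio of SRSF10 to SRSF11 went from 0.809 and 0.824 in control to 0.523 and 0.528 in the UVC libraries and 0.636 and 0.627 once photolyase was active.

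**Figure D3:**
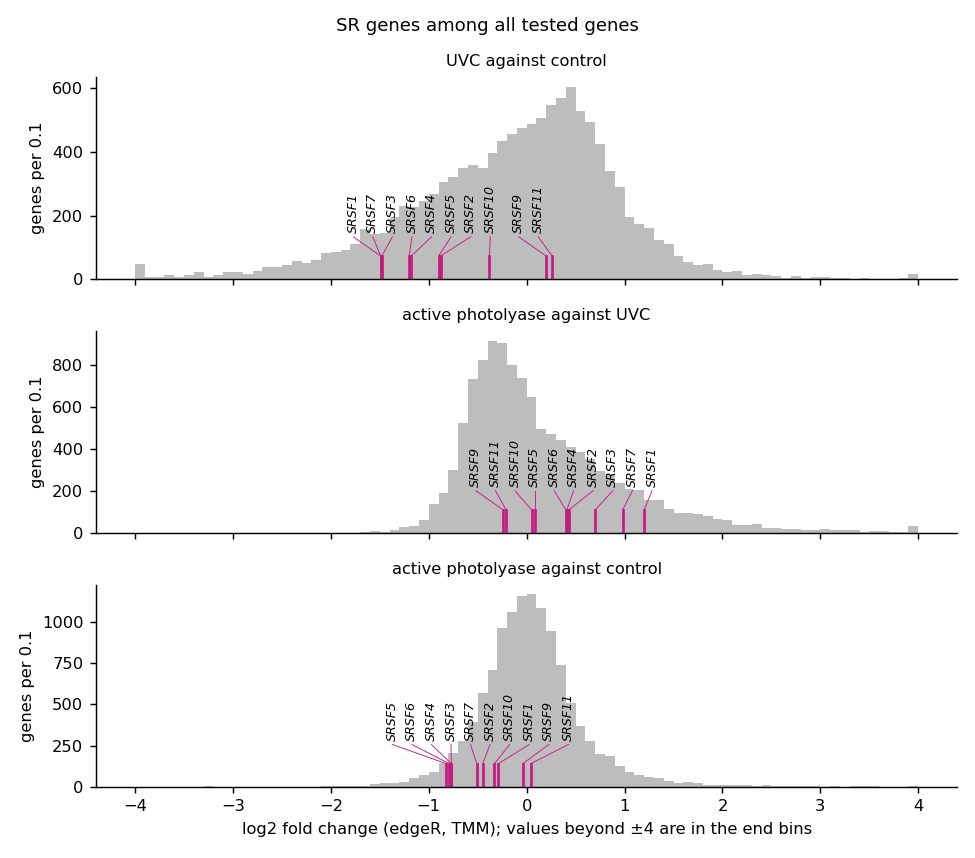
Histograms of the log2 fold changes of all 11926 tested genes (edgeR, TMM, bins of 0.1) in the 3 comparisons, with the SR genes as ticks. After UVC SRSF7, SRSF1 and SRSF3 sit at percentiles 10 to 10.2, and with active photolyase against control SRSF5, SRSF6, SRSF3 and SRSF4 sit at percentiles 3.83 to 4.61.

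The place of a member among all tested genes does not move with a common scaling factor. After UVC SRSF7, SRSF1 and SRSF3 lay at percentiles 10, 10.1 and 10.2 of the log2 changes of all genes, SRSF6 and SRSF4 at 14.7 and 15.1, SRSF5 and SRSF2 at 20.9 and 21.4, SRSF10 at 35.7, and SRSF9 and SRSF11 at 58.4 and 60.7. A fall like that of SRSF7 was therefore not rare after UVC. With active photolyase against control, where all genes spread less, SRSF5, SRSF6, SRSF3 and SRSF4 lay at 3.83, 4.17, 4.45 and 4.61, SRSF7 at 10.8, SRSF2 at 13.4, SRSF10 at 20.3 and SRSF1 at 23.2. SRSF5 thus stood lower among all genes with active photolyase than after UVC alone, and SRSF1 stood higher.

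The make-up of the SR pool within each library differed between the groups. A share also depends on the summed level of the family, which was lower after UVC. SRSF10 held 2.33 and 2.52% in control and 3.54 and 3.52% under UVC, though it was called higher under neither scaling. SRSF9 held 9.95 and 9.36% of the summed SR cRPKM in control, 21.0 and 21.1% under UVC, and 13.4 and 13.9% with active photolyase. SRSF3 held 22.3 and 21.5%, then 15.0 and 14.8%, then 18.8 and 18.3%. SRSF11 went from 2.88 and 3.06% to 6.78 and 6.67%, and then to 4.45 and 4.41%. In each of these the share with active photolyase lay between those of the other groups. SRSF7 fell from 15.4 and 14.9% to 10.2 and 10.1% and was back at 15.7 and 14.8%. SRSF1 went from 5.99 and 6.45% to 4.09 and 4.31%, and its 7.13 and 7.64% with active photolyase were above control. SRSF5 held 10.6 and 10.4% in control and 10.5 and 10.8% under UVC, and fewer, 8.94 and 8.30%, with active photolyase. SRSF2, at 13.8 to 15.6% in all libraries, had the narrowest relative range, and by cRPKM it held the third largest share after UVC. By summed reads SRSF2 held the largest share after UVC, 16.4 and 16%, and SRSF9 held 9.65 and 9.67%.

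**Figure D4:**
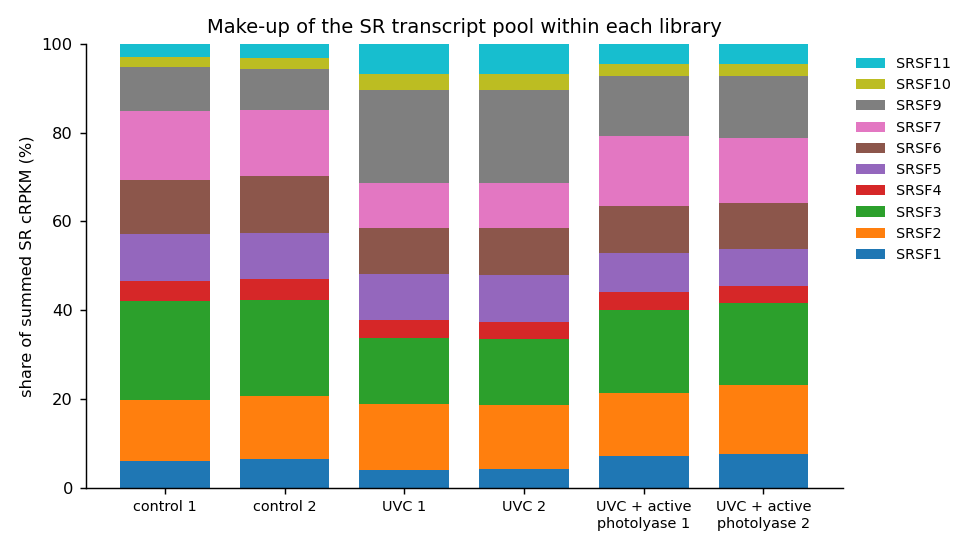
Share of the summed SR cRPKM held by each of the 10 genes, in percent, in each of the 6 libraries. The SRSF9 share was 9.95 and 9.36% in control and 21.0 and 21.1% after UVC.

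Some features were shared beyond the name, though not a place in the genome: SRSF1 and SRSF2 lie on chromosome 17, SRSF4, SRSF10 and SRSF11 on 1, SRSF7 on 2, SRSF3 on 6, SRSF9 on 12, SRSF5 on 14 and SRSF6 on 20. GENCODE 29 lists a nonsense-mediated decay transcript for all 10 members, from 1 to 6 each and most for SRSF7, against 42.4% of the 11728 tested genes found there. Of the members' 107 listed transcripts 22 were of that class, and the gene-level values may include them. The genes were short: their median span was 9.69 kb against 30.2 kb for all tested genes, and 7 of 10 were below that median. With all tested genes in 5 equal classes of span, the median log2 change after UVC went from 0.39 in the shortest class (up to 9.56 kb) to -0.23 in the longest. SRSF1, SRSF2, SRSF6, SRSF7 and SRSF9 belong to the shortest class, and 4 of these 5 fell, against 43.1% of all tested genes called lower. The share called lower within that class was not counted, and the part of span in the members' changes was not tested.

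Counts for the lists that follow are to be read beside the shares of all tested genes. After UVC 43.1% of all genes were called lower and 42.5% higher. With active photolyase 39.2% were called higher and 39.9% lower than UVC, and 33.0% higher and 32.9% lower than control. No list was tested as a set. The TRA2 proteins, SR-like activators of exons, changed as most SR genes did. TRA2A fell by 2.05 on the log2 scale after UVC, and TRA2B fell by 1.77, from 62.3 to 18.3 scaled cRPKM. Both were higher with active photolyase than after UVC (1.35 ± 0.05 and 1.25 ± 0.05) and below control (-0.70 ± 0.05 and -0.52 ± 0.05), with the same calls under library totals.

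Among SR protein kinases 9 of 10 were tested (SRPK3 was not), and after UVC 2 were called higher and 5 lower, with a median of -0.46. DYRK1A (-2.20 ± 0.11) and PRPF4B (-0.91 ± 0.06) fell, and DYRK1B (0.53 ± 0.07) rose. CLK1 was called higher (0.19 ± 0.07, adjusted p = 0.0205), but not without control replicate 1 (0.08, adjusted p = 0.248), UVC replicate 1 (0.18, adjusted p = 0.0925) or UVC replicate 2 (0.20, adjusted p = 0.0693), nor with no filter (0.10, adjusted p = 0.221). With library totals the count was 4 higher and 3 lower. CLK1 and CLK3 were highest with active photolyase. CLK1 was at 17.4 scaled cRPKM in control, 19.8 in UVC and 34.0 with photolyase active (0.97 ± 0.07 against control, adjusted p = 7.12e-08), and CLK3 at 30.2, 30.1 and 44.7 (0.57 ± 0.05, adjusted p = 5.62e-07). Both were also above control with library totals (1.08 and 0.68). In that comparison 3 kinases were higher and 4 lower (3 and 3 with library totals), with SRPK2 at -0.49 ± 0.05 and PRPF4B at -0.37 ± 0.05. Against UVC 6 were higher, DYRK1A (1.56 ± 0.12) and CLK1 (0.78 ± 0.07) among them, and 2 lower, DYRK1B (-0.30 ± 0.07) and SRPK1 (-0.18 ± 0.05); with library totals 5 were higher and 3 lower. The call of SRPK1 was lost without UVC replicate 2 (-0.15, adjusted p = 0.0709), without active photolyase replicate 1 (-0.14, adjusted p = 0.0758) and with no filter (-0.13, adjusted p = 0.0536).

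Of 7 import and export partners 6 fell after UVC and none rose (median -0.48; with library totals 2 were higher and 2 lower). ALYREF, an export adaptor, was at -0.76 ± 0.05 and the SR import receptor TNPO3 at -0.61 ± 0.06. The export receptor gene NXF1 was 0.73 ± 0.06 and its cofactor NXT2 0.64 ± 0.06 above UVC with active photolyase, where 6 of 7 were higher and none lower (3 and 1 with library totals). Both were above control too (0.35 ± 0.06 and 0.50 ± 0.06), while TNPO3 (-0.41 ± 0.06) and ALYREF (-0.23 ± 0.05; with library totals -0.12, adjusted p = 0.0558) were among 4 below it (2 above and 1 below with library totals).

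Of 21 tested SR-related and arginine-serine-rich proteins 1 was called higher and 14 lower after UVC (median -0.65; 6 and 11 with library totals). SNRNP70, of the U1 snRNP, was the 1 called higher (0.13 ± 0.05, adjusted p = 0.0297), and this call was lost with DESeq2 (adjusted p = 0.0567), with no filter (0.04, adjusted p = 0.537), and without UVC replicate 1 (adjusted p = 0.0732), UVC replicate 2 (adjusted p = 0.124) or control replicate 1 (0.09, adjusted p = 0.165). SCAF4, which guards against early transcript ends (-2.0 ± 0.06), and RBM39, a relative of U2AF (-1.98 ± 0.06), led the falls. With active photolyase 13 were above UVC and 3 below (10 and 8 with library totals), with the smallest p for SCAF4 (1.64 ± 0.06) and RNPS1 (1.34 ± 0.05) above and for SCAF11 (-0.26 ± 0.05) and SNRNP70 (-0.20 ± 0.05) below. Against control none was higher and 13 were lower (median -0.17; 1 and 8 with library totals), SCAF8 (-0.77 ± 0.05) and LUC7L3 (-0.59 ± 0.07) with the smallest p. Of 6 genes of phosphatases that act on SR proteins 4 fell after UVC and none rose (4 and 2 with library totals), and PPP1CB (-1.48 ± 0.05) and PPP2CA (-1.25 ± 0.05), both catalytic subunits, had the smallest p. With active photolyase 4 were above UVC and none below (4 and 2 with library totals), led by PPP2CA (1.11 ± 0.05) and the nuclear regulator PPP1R8 (1.00 ± 0.05). Against control 3 were lower (1 lower and 1 higher with library totals), PPP1CB at -0.58 ± 0.05 among them. PPP2CA was called too (-0.13 ± 0.05, adjusted p = 0.0282), but not with library totals (-0.02, adjusted p = 0.686), in a fit of the 2 groups alone (adjusted p = 0.0501), or without control replicate 1 (-0.10, adjusted p = 0.116), active photolyase replicate 1 (adjusted p = 0.0822) or active photolyase replicate 2 (adjusted p = 0.131).

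Of 10 nonsense-mediated decay factors 1 rose after UVC, UPF3A (0.52 ± 0.06), and 6 fell, with the helicase UPF1 (-0.88 ± 0.05) and SMG8, a regulator of the SMG1 kinase (-1.03 ± 0.06), of smallest p (median -0.32; 5 and 3 with library totals). Active photolyase had 5 above UVC, with SMG8 at 1.01 ± 0.06 and UPF1 at 0.68 ± 0.05, and UPF3A below it (-0.38 ± 0.06); with library totals 3 were above and 4 below. Against control 2 were called higher and 2 lower, the endonuclease SMG6 (-0.79 ± 0.06) and UPF1 (-0.20 ± 0.05; with library totals -0.09, adjusted p = 0.132), as against 3 higher and 1 lower with library totals. UPF3A was among those called higher (0.14 ± 0.06, adjusted p = 0.0432), but not with DESeq2 (adjusted p = 0.107), with no filter (0.09, adjusted p = 0.227) or when any 1 of the 6 libraries was left out (adjusted p from 0.0626 to 0.205).

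**Figure D5:**
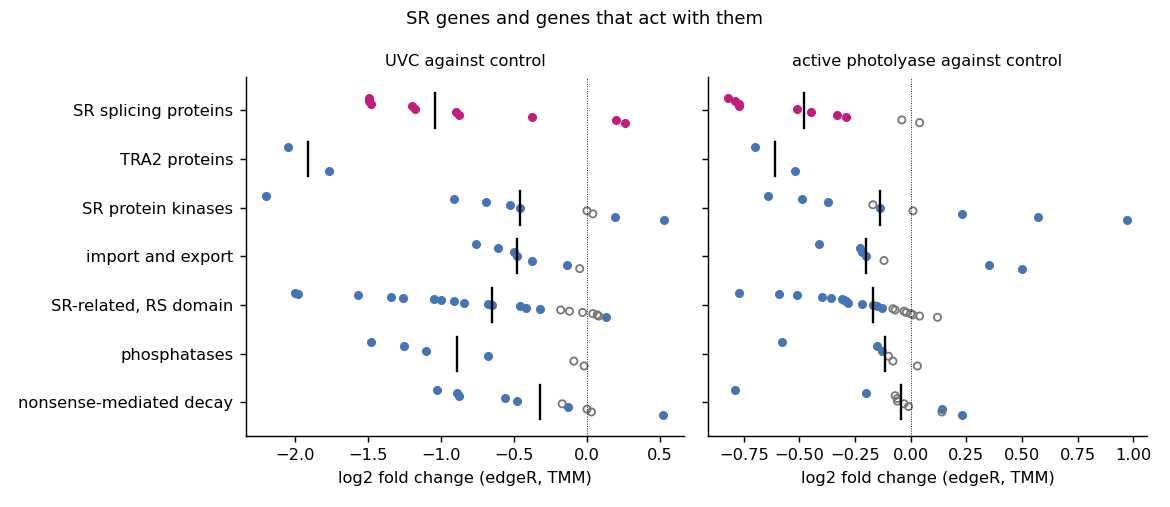
Log2 fold changes (edgeR, TMM) of the SR genes and of 6 lists of genes that act with them, for UVC and for active photolyase, each against control. Filled points were called at an adjusted p under 0.05, open points were not, and bars are list medians; the SR median was -1.04 after UVC and -0.48 with active photolyase.

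The counts of members depended on the scaling between libraries. Library totals put the median of all log2 changes at 0.42 for UVC against control, at -0.34 for active photolyase against UVC and at 0.12 for active photolyase against control. By these totals 7 members were lower and 2 higher after UVC. Then 3 were higher and 4 lower with active photolyase against UVC, and all genes split into 3318 higher and 6954 lower in place of 4676 and 4755; for UVC against control they split into 7095 and 3542 in place of 5074 and 5140. Against control with active photolyase 8 were lower and 1 was higher, SRSF11, and all genes split into 5237 higher and 2840 lower in place of 3933 and 3919. The falls of SRSF1, SRSF2, SRSF3, SRSF4, SRSF5, SRSF6 and SRSF7 below control, the rises of SRSF1, SRSF3 and SRSF7 with active photolyase, and the directions of SRSF9 and SRSF11 between UVC and the other groups held with TMM factors and with library totals.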

How the data were processed

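Messenger RNA of HaCaT cells was turned into 6 Illumina TruSeq libraries, per the labels' protocols, and reads were aligned with Bowtie to hg19, per the submitters' processing notes; the aligner version, counting rule and annotation were not given in the sources used. For each of 19847 Ensembl genes the authors deposited 1 whole-number count of reads and 1 corrected RPKM value (cRPKM); 354 genes had no value in any library. The deposited RPKM values are counts per effective length and library total, as the ratio of both columns shows in the 6664 genes above 5 cRPKM in every library (spread of a gene's length between libraries at most 0.183%).

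Genes with at least 1 cRPKM in at least 2 libraries (11926) were tested across all genes with edgeR 4.0.16 in R 4.3.3: TMM factors (0.884 to 1.18), a quasi-likelihood fit of 3 group means to all 6 libraries (3 residual and 10.03 prior degrees of freedom), two-sided, Benjamini-Hochberg adjustment, called under 0.05. Standard errors come from the fold change and F. The fit was tried on simulated counts in which few genes changed, in random directions. That run cannot show how the scaling acts here, where most genes were called after UVC. Alternatives used library totals, RLE size factors, DESeq2 1.42.0, limma 3.58.1, other filters, a replicate block and left-out libraries. Counts of replicates lay further apart than sampling noise (chi-square per degree of freedom 5.59 to 24.2). The members and lists were chosen with earlier results of these data known. All 10 members are named; from each list, up to 2 called genes of smallest p in each direction are named in each comparison, and the level of CLK3 under UVC, added after its values were seen. A gene that this rule also picks is not reported here. Gene names come from a table of Ensembl IDs, spans and transcript classes from GENCODE 29 (GRCh38), promoters from RefSeq; the 6 motifs were chosen after the windows were seen.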

Additional observations from a re-analysis of the deposited data

How the results depend on the processing

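Counts of members lower, higher and not called were the same as reported with RLE size factors, DESeq2, a filter of 5 cRPKM, a fit of only the groups compared and without each library in turn. With library totals, and with limma on log2(cRPKM + 1) or log2(cRPKM + 0.1) as deposited, active photolyase against UVC had 4 members lower and 3 higher, and active photolyase against control had 1 higher. Under those 3 settings SRSF10 turned to 0.04 for UVC against control; for active photolyase against UVC SRSF5 turned to -0.22 and SRSF10 to -0.25, -0.25 and -0.24; and SRSF9 turned to 0.07 for active photolyase against control. With median-centred limma SRSF5 (-0.13), SRSF10 (-0.15) and SRSF9 (0.03) turned too (3 members lower and 6 higher for active photolyase against UVC), and the call of SRSF10 after UVC was lost (-0.09, adjusted p = 0.124). A filter of 5 cRPKM gave -0.01 for SRSF5 and -0.04 for SRSF10 against UVC, neither called. With no filter only 1 member was called higher after UVC, since SRSF9 was at 0.11 (adjusted p = 0.0824), and SRSF11 was at -0.0035 for active photolyase against control. Leaving out a library moved SRSF11 in that comparison between -0.01 and 0.10. The cause of these shifts was not tested beyond the scaling itself. As a share of summed reads in place of cRPKM, 26 of 30 group shares moved by more than the spread between libraries, since reads weigh long transcripts more. Leaving out a library leaves its group with 1 sample, assumed to vary like the others.

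Replicate numbers were shared by the groups. Deviations of libraries of the same number had r = -0.0308 between control and UVC and -0.00204 between control and active photolyase. Between UVC and active photolyase r was 0.153. With 2 libraries in a group these values do not settle whether libraries of the same number were handled together. In a fit with a replicate block the calls were 10238, 9480 and 7937 genes in place of 10214, 9431 and 7852, and no member's call changed. Depth did not limit the members, each with at least 2452 reads in a library; 2 libraries in a group do.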

Other observations

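Of the family genes outside the 10, SRSF12 was listed at 0.07 to 0.15 cRPKM in the 6 libraries as deposited and did not reach the filter, and SRSF8 was not analysed here.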
